A study of Mus musculus with 4 samples.

Results

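The genes described here encode serotonin receptors, and the measurement is the repressive chromatin mark H3K27me3 over each gene in alveolar macrophages, the resident phagocytes of the lung airspaces. The family was selected on a measured value of these same libraries: Htr2c was among the genes with the largest loss of H3K27me3 in Suz12 conditional knockout (cKO) cells. The 10 genes Htr1a, Htr1b, Htr1d, Htr1f, Htr2a, Htr2b, Htr2c, Htr4, Htr5a and Htr7 were then taken by name out of 27095 gene windows in the deposited count table. All 10 have a row there, 8 passed the filter on low counts, and Htr1b and Htr2b had 0 counts in every library. The differences between genotypes at these 10 genes are therefore given as a description, with no p-value.

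The assay was Cut&Tag: a transposase held near an antibody to H3K27me3 cuts the chromatin around the mark and tags it for sequencing. There were 2 libraries from Suz12 cKO and 2 from wild-type marrow chimeras on a C57BL/6 background. All hosts were lethally irradiated Ly5.1 mice, and each had received donor marrow that was 90% Ly5.2, of Suz12 cKO or of wild-type genotype, together with 10% wild-type Ly5.1 marrow. The sources used here do not give the Cre driver, the age and sex of the mice, or whether sorting separated Ly5.2 from Ly5.1 or surviving host macrophages. The cKO libraries may therefore hold cells with intact Suz12, and that share was not measured. Each library came from 100000 sorted cells. Summed over gene windows, depth was 3331138 and 3567282 counts in the cKO libraries and 2592297 and 2142175 counts in the wild-type libraries.

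Serotonin receptors fall into classes by how they signal. The Htr1 receptors and Htr5a couple to Gi/o proteins and lower cAMP, the Htr2 receptors couple to Gq and release calcium through phospholipase C, and Htr4, Htr6 and Htr7 couple to Gs and raise cAMP. Htr3a and Htr3b form an ion channel instead. Outside the brain and gut, most of these genes are silent in most tissues, and silent developmental and neuronal genes are frequent carriers of H3K27me3. The mark is written by Polycomb repressive complex 2 (PRC2), of which Suz12 is an obligate subunit.

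By reference positions, the deposited window length equals the gene with 3 kb on either side for 11525 of 27095 genes. Such a window sums promoter and gene body. Among the members, the windows of Htr1b (7.16 kb), Htr2b (18.9 kb) and Htr4 (150 kb) are clearly shorter than that. Levels per kb and overlaps at these genes are therefore approximate. Levels are CPM, the counts scaled to a library size of 1e+06 with TMM factors. Levels of different genes are compared as CPM per kb of window. Such levels, and the gains and losses drawn from them, are relative to the rest of each library. A change shared by most windows would not show in them, and the absolute amount of the mark was not measured here. The Suz12 window itself held 11 and 10 counts in the cKO libraries and 8 and 10 in the wild-type libraries. Those counts do not check the deletion, since the deleted part is not given and the window is nearly bare of the mark. Genes of alveolar macrophage identity stood at a median of 0.149 CPM per kb in cKO and 0.101 in wild type, over 13 genes, against 4.33 and 3.55 for 5 fibroblast genes and 0.94 and 0.758 for 7 T cell genes. Of 16752 genes tested with edgeR, 1076 (6.42%) passed a Benjamini-Hochberg adjusted p of 0.05, with 747 gains (4.46%) and 329 losses (1.96%) of the mark in cKO. Without cKO library 1 the gains numbered 411, without cKO library 2 there were 361 gains and 92 losses, and without wild-type library 2 there were 196 losses.

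Htr2c, a Gq-coupled receptor of brain and choroid plexus that is known for its part in appetite and mood, was the 1 serotonin receptor gene of the 8 tested that passed the threshold, and it lost the mark. Beside that count of 1 of 8 stands the 6.42% of all tested genes that passed, and nothing is read from the comparison because this loss chose the family. The gene lies on chromosome X (146962464 to 147197277 in mm10), and its window of 241 kb is the longest of the 10. It held 96 and 92 counts in the cKO libraries, against 258 and 233 counts in the wild-type libraries, although the cKO libraries were the deeper ones. As levels these were 29.0 and 26.6 CPM in cKO and 98.9 and 105 CPM in wild type. Both cKO values lie far below both wild-type values, and each genotype's libraries lie close together. The log2 fold change, cKO over wild type, was −1.88 ± 0.15 (SE), a fitted ratio of 0.272, and the ratios of single cKO to single wild-type libraries ran from 0.252 to 0.293. By fold change, 39 of the 16752 tested genes stood at or below Htr2c, itself included. Over the 11 alternatives run its log2 fold change lay between −1.96 and −1.52.

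Per kb the Htr2c window was lightly marked in both genotypes, at 0.115 ± 0.00722 CPM per kb in cKO and 0.424 ± 0.0193 in wild type (SD, n = 2 each). The medians over all tested windows were 0.679 in cKO and 0.664 in wild type, so the level was below the median in wild type already. Over tested windows of at least 200 kb, a length chosen after the data were seen, the medians were 0.564 and 0.543. The wild-type level of Htr2c was nearer to that of such long windows. The counts give 1 sum for the whole window and do not show where within it the mark stood. Htr2c also hosts small RNA genes, and the windows of 6 of them (Mir764, Mir1912, Mir1264, Mir1298, Mir448 and Snora35) lie inside its own. Together they cover 13.2% of the Htr2c window and held 0 counts in all 4 libraries. Of the 2446 windows that lie wholly inside others by reference positions, 67.1% held 0 counts in all libraries, against 1.27% of 10808 windows with no overlap. The counting options are not given, and whether reads in shared stretches were left uncounted was not tested. If all its counts fell in the unshared 209 kb, the Htr2c level was 0.133 CPM per kb in cKO and 0.489 in wild type.

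The mature microRNAs of those nested genes, 1 arm for each, lie in stretches of Htr2c and cannot be read apart from it. They are from RefSeq (GRCm38.p6, chromosome X, plus strand), and capitals mark the seed, bases 2 to 8, by which a microRNA pairs with its targets. No pair of them shares a seed. Their distances from the Htr2c start are 39.8, 47.0, 48.2, 102.5 and 195.8 kb in the order shown.
mmu-miR-764-5p: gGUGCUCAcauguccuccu
mmu-miR-1912-3p: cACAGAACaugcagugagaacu
mmu-miR-1264-3p: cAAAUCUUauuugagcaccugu
mmu-miR-1298-5p: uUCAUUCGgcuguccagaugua
mmu-miR-448-3p: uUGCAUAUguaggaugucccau

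Htr2a, the Gq-coupled receptor through which classical psychedelics act, is the near relative of Htr2c and stood apart from it in level and direction. Its window on chromosome 14 (gene at 74640874 to 74706859) held 193 and 211 CPM in cKO, against 190 and 171 CPM in wild type. The cKO values are the higher ones, but the lowest of them exceeds the highest wild-type value by less than the spread within either genotype. The log2 fold change was 0.16 ± 0.11 (SE), and the level was 2.80 ± 0.179 CPM per kb in cKO and 2.51 ± 0.191 in wild type. Htr2b, the Gq-coupled receptor of heart valve and smooth muscle, could not be measured. Its gene on chromosome 1 (86097546 to 86116231) lies wholly inside the window of Psmd1, a proteasome subunit gene, by reference positions. Whether reads shared with Psmd1 were left uncounted was not tested. The 0 counts of Htr2b in all 4 libraries therefore cannot be read as a lack of the mark. The 3 Htr2 genes thus gave 1 large loss, 1 difference that did not pass the threshold and 1 window without counts.

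The promoters of both measured Htr2 genes hold slightly fewer CG than the median promoter, while that of Htr7 is among the richest of all. CG is the dinucleotide whose dense islands are known to recruit PRC2. The 300 bases run from 250 before to 50 after an annotated start, on the coding strand, and were searched for the letters CG, which read the same on both strands. The Htr2c promoter holds 5 CG and that of Htr2a 6, counts that 62.0% and 56.4% of the 32851 promoters in the RefSeq table reach or exceed. That of Htr7 holds 46, reached by 1.65%. They are shown with each CG in capitals. They set the member that lost the mark beside its relative and the CG-richest of the 9 members searched. The promoter of Htr4 was not searched. The Htr2c promoter is at chrX:146962263-146962562 (plus strand), that of Htr2a at chr14:74640624-74640923 (plus strand) and that of Htr7 at chr19:36057311-36057610 (minus strand), all in GRCm38.p6, the patch release of mm10.
Htr2c: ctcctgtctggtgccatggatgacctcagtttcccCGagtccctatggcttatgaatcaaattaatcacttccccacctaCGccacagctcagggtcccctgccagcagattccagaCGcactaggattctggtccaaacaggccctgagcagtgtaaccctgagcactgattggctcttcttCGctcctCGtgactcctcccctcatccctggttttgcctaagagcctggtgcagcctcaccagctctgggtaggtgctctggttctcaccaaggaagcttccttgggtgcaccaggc
Htr2a: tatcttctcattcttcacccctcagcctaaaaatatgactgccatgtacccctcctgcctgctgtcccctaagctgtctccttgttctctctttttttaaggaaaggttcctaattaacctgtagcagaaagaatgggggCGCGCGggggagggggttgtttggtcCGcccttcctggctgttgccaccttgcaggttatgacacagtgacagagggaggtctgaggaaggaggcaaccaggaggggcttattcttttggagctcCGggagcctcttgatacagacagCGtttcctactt
Htr7: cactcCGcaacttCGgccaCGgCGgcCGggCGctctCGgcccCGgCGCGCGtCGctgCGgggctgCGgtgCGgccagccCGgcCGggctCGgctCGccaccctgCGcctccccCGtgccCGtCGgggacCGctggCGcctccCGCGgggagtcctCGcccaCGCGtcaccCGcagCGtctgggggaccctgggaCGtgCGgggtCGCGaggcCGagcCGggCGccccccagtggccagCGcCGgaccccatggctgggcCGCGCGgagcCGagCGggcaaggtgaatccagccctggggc

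For the other members searched, CG counts were 4 for Htr2b, 7 for Htr1a, 11 for Htr1b, 13 for Htr1f and 14 for Htr5a. The pair of Htr1d promoters held 7 and 28. The gene with the highest level per kb, Htr1a, has as few as 7, at the median of 7 over all promoters. CG counts and H3K27me3 thus did not follow 1 order among these genes, and because a window sums promoter and body, the level at the promoter itself was not measured.

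Of the 4 Gi/o-coupled Htr1 genes, 3 were measured, and none of them passed the threshold. Htr1a, the autoreceptor of serotonin neurons, had 62.0 and 78.0 CPM in cKO, against 77.5 and 65.2 CPM in wild type, at a gene on chromosome 13 (105443693 to 105448133). The genotypes overlap, and the libraries of each genotype differ by more than the means do. Its log2 fold change was −0.03 ± 0.14 (SE), and it was 0.12 without cKO library 1 and 0.10 without wild-type library 1. Htr1d, a target of triptan migraine drugs, had 87.4 and 83.5 CPM in cKO, against 70.9 and 79.7 CPM in wild type (chromosome 4, 136423522 to 136444405). Both cKO values are above both wild-type values, with a log2 fold change of 0.19 ± 0.13.

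Htr1f, also a triptan-binding receptor, showed the highest positive difference of the family. It had 118 and 109 CPM in cKO, against 87.8 and 89.6 CPM in wild type, over a window of 187 kb on chromosome 16 (gene at 64924729 to 65105784). The genotypes do not overlap, yet the log2 fold change of 0.35 ± 0.13 did not pass the threshold. Per kb it stood at 0.605 ± 0.033 in cKO and 0.474 ± 0.00694 in wild type (SD, n = 2 each). Htr1f and Htr2c are thus alike in their long windows and in their wild-type levels per kb below the median, and opposite in the sign of their differences. Htr1b, the terminal autoreceptor, had 0 counts in every library. By reference positions 68.5% of its window overlaps that of the noncoding gene D430036J16Rik, and the deposited window of 7.16 kb is shorter than the reference gene with its flanks, so the overlap in the table may differ. A count of 0 allows up to 3 counts, or 0.866 to 1.36 CPM depending on the library, of reads that fall to these windows alone, in counting error only.

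Htr4, Htr7 and Htr5a carried the mark at nearly the same relative level in both genotypes. Htr4, a Gs-coupled receptor known for its effect on gut motility, had 246 and 275 CPM in cKO, against 257 and 283 CPM in wild type, at a log2 fold change of −0.05 ± 0.10 (SE; chromosome 18, 62323546 to 62503027), with 2.68% of its window shared with Fbxo38. Htr7, a Gs-coupled receptor of the circadian and limbic systems, had 276 and 252 CPM in cKO, against 297 and 257 CPM in wild type (−0.07 ± 0.10; chromosome 19, 35958415 to 36058133). Htr5a, a Gi/o-coupled receptor of the brain, had 83.1 and 75.1 CPM in cKO, against 92.4 and 77.0 CPM in wild type (−0.11 ± 0.13; chromosome 5, 27841716 to 27855086). The genotypes overlap at all 3 genes. Scaled to housekeeping genes, which shifts the median of all tested genes by 0.36 on the log2 scale, the log2 fold changes of Htr1a, Htr4, Htr5a and Htr7 turn positive, at 0.36, 0.34, 0.26 and 0.29, while Htr2c stays at −1.52.

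**Figure D1:**
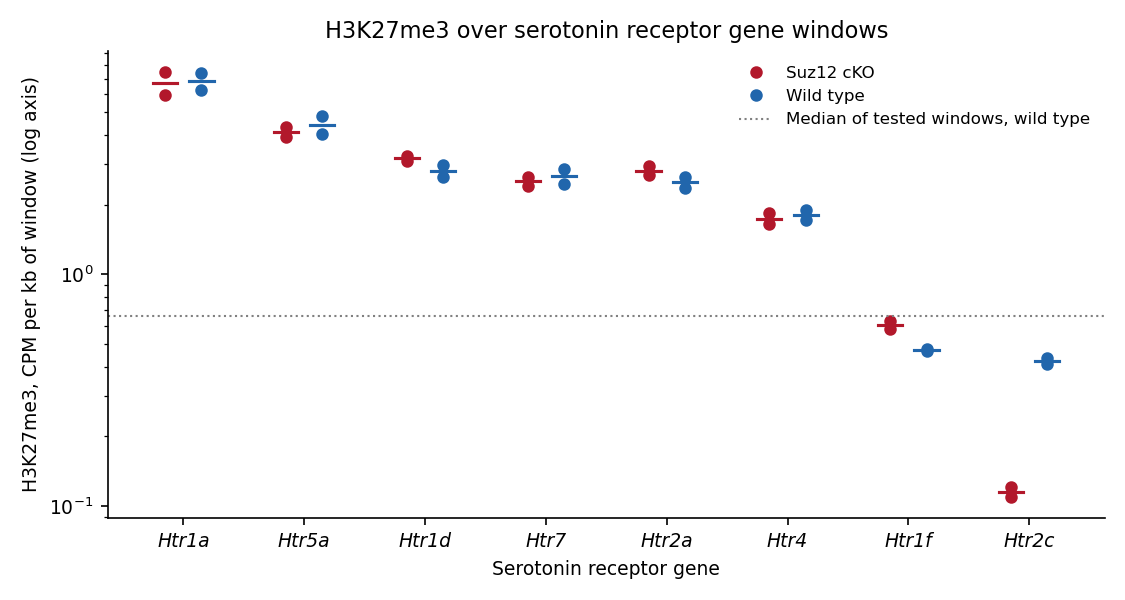
H3K27me3 in CPM per kb of window (log axis) for the 8 serotonin receptor genes with counts, with 1 point per library, a bar at the mean of each genotype (Suz12 cKO left, wild type right) and a dotted line at the wild-type median of all tested windows. Htr1a is highest in both genotypes, and Htr2c is lowest, with its cKO points at 0.121 and 0.11 and its wild-type points at 0.411 and 0.438.

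The order of the wild-type levels per kb ran from Htr1a (6.83 ± 0.83 CPM per kb) over Htr5a (4.42 ± 0.57) to Htr1d (2.80 ± 0.23), Htr7 (2.65 ± 0.268) and Htr2a (2.51 ± 0.191), then Htr4 (1.80 ± 0.125), Htr1f (0.474 ± 0.00694) and Htr2c (0.424 ± 0.0193), each as mean and SD of 2 libraries. The values of Htr1d, Htr7 and Htr2a overlap between libraries and have no order among themselves, and no other neighbours in the order overlap. In cKO the levels were 6.70 ± 1.08 for Htr1a, 4.13 ± 0.298 for Htr5a, 3.18 ± 0.103 for Htr1d, 2.80 ± 0.179 for Htr2a, 2.53 ± 0.162 for Htr7, 1.74 ± 0.133 for Htr4, 0.605 ± 0.033 for Htr1f and 0.115 ± 0.00722 for Htr2c. The cKO order is the same apart from Htr2a and Htr7, which change places, and whose cKO values do not overlap. In both genotypes 6 of the 8 genes stood above the median of all tested windows, and Htr1f and Htr2c below it. Htr1f and Htr2c also have the longest windows of the family, at 187 and 241 kb, against a median of 29.1 kb over all tested genes.

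**Figure D2:**
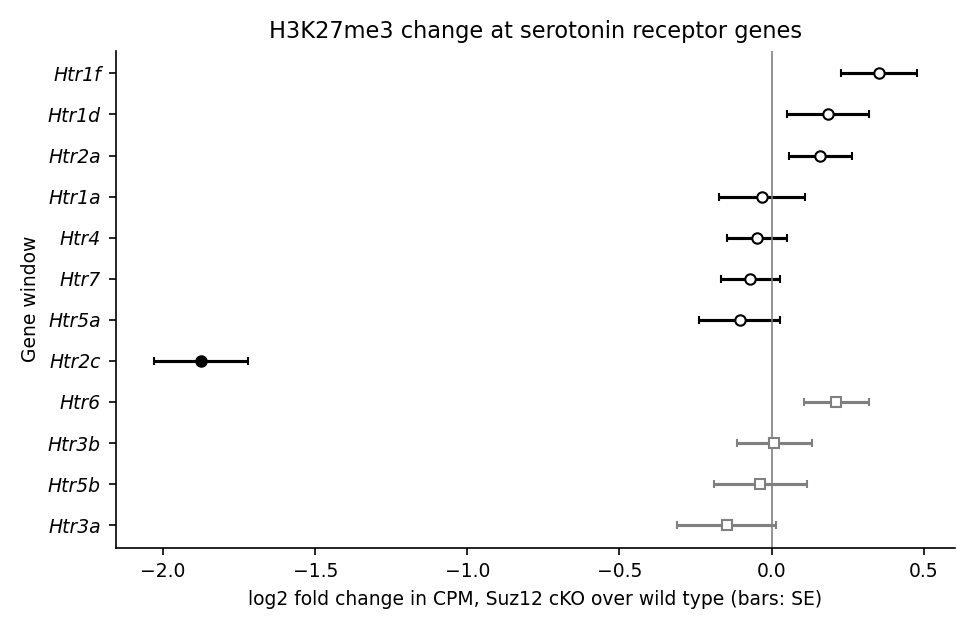
Log2 fold change in H3K27me3 CPM, Suz12 cKO over wild type, with its SE, for the 8 listed serotonin receptor genes with counts (circles, filled where the adjusted p was below 0.05) and for the 4 other receptor genes (squares, none below 0.05). Htr2c lies at −1.88, and the other genes lie between −0.15 and 0.35.

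Counted together, 3 of the 8 measured genes had a positive and 5 a negative log2 fold change, with a median of −0.04, against −0.01 over all tested genes. The 7 genes other than Htr2c ran from −0.11 to 0.35. The genotypes did not overlap at 4 of the 8 genes, with cKO higher at Htr1d, Htr1f and Htr2a and lower at Htr2c. Over all tested genes 47.6% did not overlap, so the share in the family is near the background.

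Of the 4 serotonin receptor genes left off the list of 10, 0 passed the threshold by edgeR or by DESeq2. Only 1, Htr6, had an unadjusted edgeR p below 0.05, and it was higher in cKO. Over all tested genes 6.42% passed by edgeR, and 10.3% were higher and 8.26% lower at that unadjusted p. With 4 genes, nothing is read from these counts. The sources used here do not say why these 4 were left off. The list was made with earlier results of these data known, so their values may have entered the choice. Htr3a, the obligate subunit of the serotonin-gated channel, had 35.7 and 60.4 CPM in cKO, against 53.7 and 53.0 CPM in wild type (adjusted p = 0.697), so its cKO libraries lie on either side of both wild-type ones. Htr3b, its partner subunit, had 110 and 94.1 CPM in cKO and 110 and 92.4 CPM in wild type (adjusted p = 0.983). Htr5b, a rodent receptor whose human counterpart is a pseudogene, had 48.7 and 63.8 CPM in cKO and 61.7 and 53.4 CPM in wild type (adjusted p = 0.938). Htr6, a Gs-coupled brain receptor, had 202 and 195 CPM in cKO and 183 and 159 CPM in wild type, or 0.21 ± 0.11 as log2 fold change with its SE (adjusted p = 0.254). At 10.2 ± 0.268 CPM per kb in cKO and 8.82 ± 0.875 in wild type, Htr6 stood higher than any of the 10 listed genes, with 25% of its window shared with Tmco4.

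**Figure D3:**
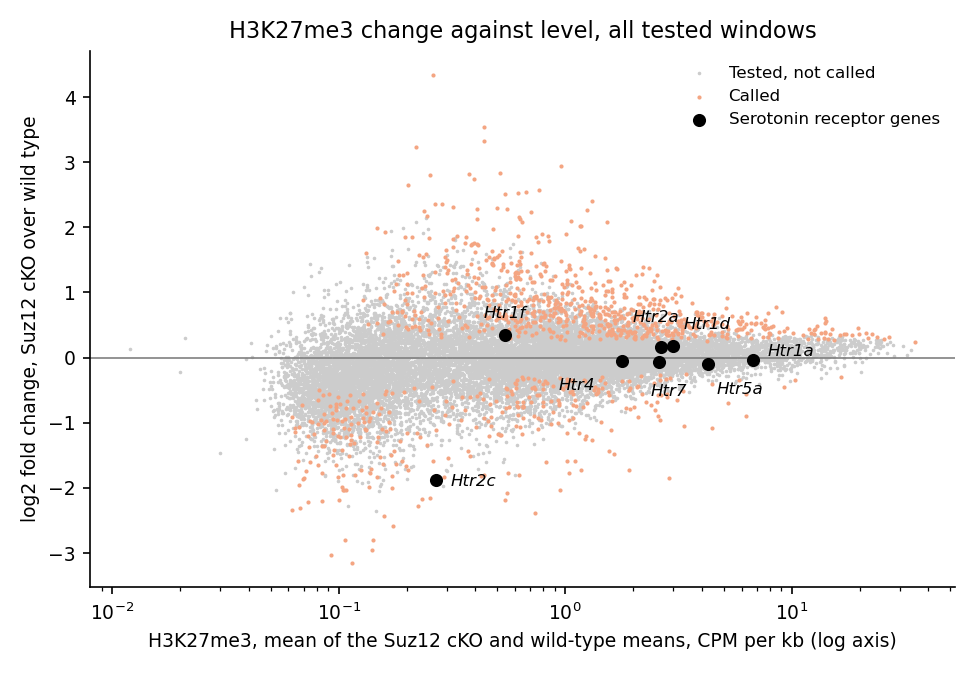
Log2 fold change, Suz12 cKO over wild type, against H3K27me3 level in CPM per kb (log axis) for all tested windows with a symbol, with windows below an adjusted p of 0.05 in orange and the 8 serotonin receptor genes in black. Htr2c lies at the lower edge of the cloud among windows of low level, and the other 7 lie within it.

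None of the 5 tested windows around Htr2c passed the threshold, beside 6.42% of all tested genes. With so few windows, that count is near the share over all genes. No tested window lies within 1 Mb before its start. Beyond its end, the nearest tested window is that of Il13ra2, a decoy receptor for interleukin 13, at a gap of 180 kb. It had 19.5 ± 0.633 CPM in cKO and 23.9 ± 2.48 in wild type (SD, n = 2 each), and its log2 fold change was −0.30 ± 0.24 (SE, edgeR adjusted p = 0.548). The other 4 tested windows within 1 Mb, Lrch2 and the predicted genes Gm15128, Gm15080 and Gm15107, had log2 fold changes of −0.12, −0.27, −0.09 and −0.35. All 5 are negative and much smaller in size than that of Htr2c, a difference for which no test was run. Of the nearest tested windows on either side of the other members, 15 in number, 0 passed the threshold by edgeR (adjusted p = 0.299 to 0.997) or by DESeq2, and 0 had an unadjusted p below 0.05. Of the 5 beyond Htr2c, 0 passed by either tool and 1, Gm15107, had an unadjusted p below 0.05. Over all tested genes 10.3% were higher and 8.26% lower at an unadjusted edgeR p below 0.05. Sets this small do not show that the loss was confined to Htr2c.

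**Figure D4:**
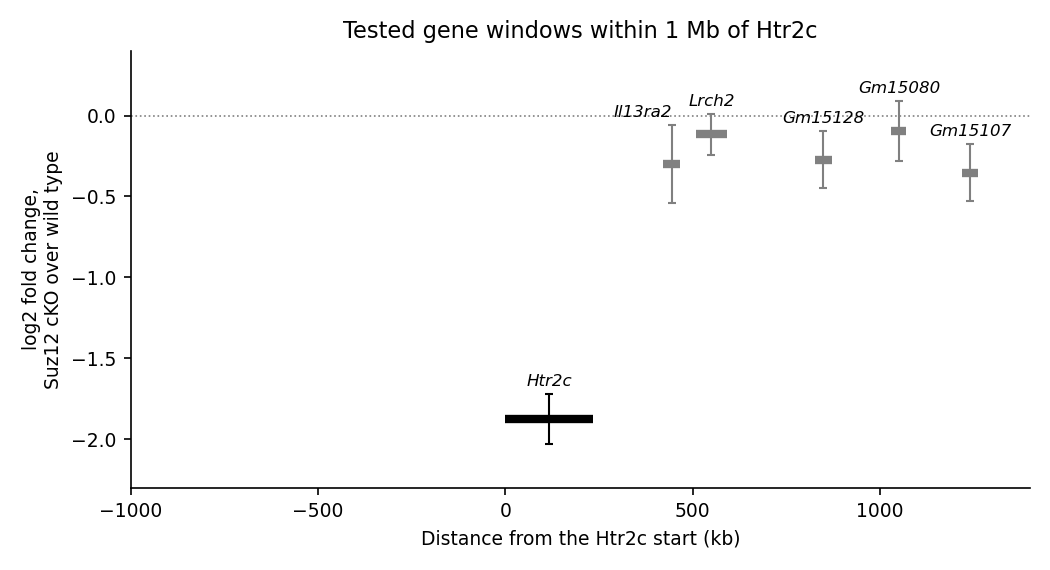
Log2 fold change, Suz12 cKO over wild type (vertical bars, SE), for the 6 tested gene windows within 1 Mb of Htr2c, drawn as horizontal bars over each gene's extent by distance from the Htr2c start. Htr2c is at −1.88, and the 5 others, all beyond its end, lie between −0.35 and −0.09.

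Chromosome X as a whole had log2 fold changes centred near 0. The TMM scaling itself holds the median of all tested windows near 0, at −0.01. The 946 tested X-linked windows had a median log2 fold change of 0.07, against −0.02 for 15210 autosomal windows, and Htr2c was the 1 X-linked window at or below its own value. Of the X-linked windows 18 lost the mark (1.90%), close to the autosomal share of 1.99%, and 12 gained it (1.27%), against 716 of the autosomal windows (4.71%). Windows on X took 5.35% and 5.43% of all counts in the cKO libraries, against 5.27% and 5.50% in the wild-type libraries, and those on Y took 26.9 and 24.3 CPM in cKO and 25.3 and 28.5 CPM in wild type. These shares overlap between the genotypes. They are parts of each library's total and do not give the absolute amount of the mark on X or Y. Among 949 tested windows of at least 200 kb, a length chosen after the data were seen, 59 lost the mark (6.22%) and 95 gained it (10.0%), against 1.96% and 4.46% of all tested windows, and Htr2c was the 1 at or below its own fold change.

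The tested genes whose levels per kb over the 4 libraries came nearest to those of Htr2c, by Euclidean distance of log2 CPM per kb, were Fgf1, Lepr, Acot9, Cd93 and Flt3l, at distances of 0.25, 0.45, 0.66, 0.67 and 0.69. Fgf1, which encodes a growth factor, had 11.2 and 10.7 CPM in cKO, against 38.7 and 39.4 CPM in wild type, in a window that lies wholly within others by reference positions. Lepr, the leptin receptor gene, had 13.0 and 13.9 CPM in cKO, against 33.7 and 48.0 CPM in wild type. Acot9, an acyl-CoA thioesterase gene that is also X-linked, had 7.56 and 5.2 CPM in cKO, against 18.0 and 19.0 CPM in wild type. The windows of Cd93 and Flt3l held 19 counts or fewer in each library, and 37.3% of that of Flt3l overlaps other genes. The likeness was chosen on the same values it describes and carries no test.

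Of the genes that make, move and break down serotonin, 1 passed the threshold. The list holds 24 genes, of which 20 were tested, and 1 gained and 0 lost the mark, beside 4.46% and 1.96% of all tested genes, with a median log2 fold change of 0.05. At an unadjusted p below 0.05 there were 3 higher and 1 lower, beside 10.3% and 8.26% of all tested genes, and DESeq2 called 0. The gene that rose was Slc6a4, the serotonin reuptake transporter and target of SSRI antidepressants. It held 52 and 59 counts in cKO and 22 and 18 counts in wild type, or 16.4 ± 0.931 and 8.29 ± 0.202 CPM (SD, n = 2 each), with 0.98 ± 0.32 as log2 fold change and SE (adjusted p = 0.0442). That call ended without cKO library 1 (adjusted p = 0.116), cKO library 2 (0.285), wild-type library 1 (0.128) or wild-type library 2 (0.154), and over the alternatives with a value the adjusted p ran from 0.0422 to 0.285. Tph1, the rate-limiting enzyme of serotonin synthesis outside the brain, had 137 ± 0.269 CPM in cKO and 142 ± 10.5 in wild type (adjusted p = 0.882) and, at 4.36 and 4.52 CPM per kb, carried the highest level of the list. Maoa, which degrades serotonin and lies on X like Htr2c, had 68.2 ± 2.80 CPM in cKO and 63.3 ± 14.0 in wild type (adjusted p = 0.79).

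Genes that relay the receptors' signals had a lower median of H3K27me3 than the receptors. It stood at 0.698 CPM per kb in cKO and 0.634 in wild type over the 29 tested of 33 genes, against 2.67 and 2.58 over the 8 receptor genes, and no test was run on the difference. Of the 29, 4 gained and 2 lost the mark, beside 4.46% and 1.96% of all tested genes. Adcy9, an adenylyl cyclase, rose to 193 ± 18.6 CPM in cKO, against 87.5 ± 1.48 in wild type (log2 fold change 1.14 ± 0.12, adjusted p = 5.53e-17), and passed the threshold in all 11 alternatives. Itpr2, the calcium release channel that acts below the Gq-coupled receptors, fell to 34.0 ± 2.36 CPM in cKO, against 57.8 ± 1.74 in wild type (−0.77 ± 0.17, adjusted p = 0.000451). Gnaq, the G protein subunit through which Htr2c signals, had 13.8 ± 1.91 CPM in cKO and 22.2 ± 0.63 in wild type. Its log2 fold change of −0.69 ± 0.26 did not pass the threshold (adjusted p = 0.101). Per kb, Itpr2 stood at 0.0858 in cKO and 0.146 in wild type, and Gnaq at 0.0528 and 0.0851. The medians over all tested windows were 0.679 and 0.664, so these windows were lightly marked. Related genes went either way, and none passed the threshold. Gna11, Gna14 and Itpr3 had log2 fold changes of 0.27, 0.20 and 0.18, and Gna15 and Itpr1 of −0.33 and −0.08.

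The other 4 genes of that list that passed were adenylyl cyclases and an arrestin. Adcy4 rose by 0.86 ± 0.15 (adjusted p = 1.93e-06), with 50.1% of its window shared with other genes, and Adcy2 by 0.46 ± 0.11 (adjusted p = 0.00111). The call of Adcy2 ended without cKO library 1 (adjusted p = 0.151). Arrb1, which desensitises G protein-coupled receptors, rose by 0.59 ± 0.18 (adjusted p = 0.0192), but not without cKO library 1 (0.0979), cKO library 2 (0.195) or wild-type library 1 (0.137). Adcy8 had a log2 fold change of −0.30 ± 0.09 (adjusted p = 0.027), which did not pass without cKO library 1 (0.271), cKO library 2 (0.269) or wild-type library 1 (0.073). With scaling to housekeeping genes Adcy8 stood at 0.07 (adjusted p = 0.931), and the calls of Adcy2, Adcy4, Arrb1 and Itpr2 ended too (adjusted p = 0.346, 0.0519, 0.212 and 0.613).

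Receptor genes for the other monoamines resembled the serotonin receptor genes in level. Over the 18 tested of 19 dopamine, adrenergic, histamine and trace amine receptor genes the median was 3.39 CPM per kb in cKO and 3.30 in wild type, and 17 of the 18 stood above the wild-type median of all tested windows, as did 6 of the 8 serotonin receptor genes. The median log2 fold change was 0.01, and 1 gene gained and 0 lost the mark, beside 4.46% and 1.96% of all tested genes. At an unadjusted p below 0.05 there were 4 higher and 1 lower, beside 10.3% and 8.26%, and DESeq2 called 0. Adra2a, an adrenergic autoreceptor gene, rose to 34.6 ± 5.35 CPM in cKO, against 21.6 ± 0.183 in wild type (log2 fold change 0.68 ± 0.21, adjusted p = 0.0311). That call ended without cKO library 2 (adjusted p = 0.448), wild-type library 1 (0.123) or wild-type library 2 (0.106), and over the alternatives its adjusted p ran from 0.0291 to 0.448. No gene of this list had a fold change as low as that of Htr2c; the lowest was −0.44, at Drd5, a dopamine receptor gene (adjusted p = 0.303).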

How the data were processed

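H3K27me3 Cut&Tag counts of 4 libraries, 2 Suz12 cKO and 2 wild type, were used; groups and replicate numbers came from the sample titles. The authors deposited whole-number counts per Entrez gene window with a window length in bp. They were made with featureCounts on mm10, per the submitters' processing notes. The sources used here name no aligner, no handling of duplicates and no counting options. Symbols and positions came from RefSeq (GRCm38.p6), which matched 25204 of 27095 IDs; for 11525 genes the window length equals the gene with 3 kb on each side. Windows in the reference have 3 kb flanks, so overlaps are approximate.

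Genotypes were compared with edgeR 4.0.16 under R 4.3.3 (filterByExpr, TMM factors, glmQLFit and glmQLFTest, genotype as the one term, 16752 genes tested), with Benjamini-Hochberg adjustment over all tested genes and a threshold of 0.05. Fold changes are cKO over wild type, and SE is their size over the square root of F. The procedure was also run on simulated counts. Their spread was fixed rather than estimated from these libraries, and only well-covered genes were given a change. Alternatives were 4 other scalings (library totals, DESeq2 size factors, upper quartile, 35 housekeeping genes), no count filter, DESeq2 1.42.0, leaving out each library, and a replicate block. Totals of 2142175 to 3567282 counts limit the precision of windows with few counts. Counts come from reads without molecular identifiers, so counting precision is that of reads, not molecules.

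The members and lists were chosen with earlier results of these data known. Named were all 14 serotonin receptor genes, called genes of the other lists (up to 6, by lowest p) with a few of known function added after their values were seen (Tph1, Maoa, Gnaq, Drd5), the nearest tested window on each side of a member within 1 Mb, and the 5 genes most like Htr2c. The labels call the libraries biological replicates.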

Additional observations from a re-analysis of the deposited data

How the results depend on the processing

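The log2 fold change of Htr2c, whose loss chose the family, lay between −1.96 and −1.52 over the 11 alternatives. All-gene counts moved: gains numbered 494 with upper-quartile factors, 236 with housekeeping scaling and 324 by DESeq2's Wald test, and 361 to 772 when 1 library was left out, against 747, and losses numbered 519, 8 and 52 under those 3 settings and 92 to 240 with 1 library left out, against 329. Of the synthesis, transport and breakdown genes 0 were called with housekeeping scaling, upper-quartile factors, library totals alone, no count filter or DESeq2 (which gave Slc6a4 no adjusted p), and 0 without any 1 library. Of the signalling genes 1 was called with housekeeping scaling and 3 to 6 with 1 library left out, against 6. Among the settings that keep all 4 libraries, 0 of the other monoamine receptor genes were called with library totals alone, housekeeping scaling or DESeq2's Wald test. With upper-quartile factors the 1 called was Adra1a in place of Adra2a, so an equal count need not mean the same gene. Housekeeping scaling rests on 179 to 248 counts per library. With a replicate block, 733 genes gained and 306 lost. The deviations of same-numbered libraries had a correlation of 0.00945. This gives no sign of pairing but cannot exclude it, because counting error also lowers such a correlation. A library left alone in its group was assumed to vary like the others.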
